A study of Rattus norvegicus with 18 samples.

Results

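The 10 genes described here encode enzymes that remove reactive oxygen or make glutathione: Sod1, Sod2, Cat, Gpx1, Gpx4, Gclc, Gclm, Nqo1, Hmox1 and Txnrd1. They were taken as every probe set that the array's annotation gives one of these symbols, which found 13 probe sets of 31099 on the array, for 10 of the 14218 genes named there. Expression was measured in pieces of hippocampal formation and neocortex from male Sprague-Dawley rats, whose paradoxical sleep, the rapid eye movement state, had been manipulated. Recovery rats spent 72 h without paradoxical sleep and then 6 h in which they could sleep, deprived rats spent 78 h without it, and control rats stayed in the home cage. Deprivation used the multiple platform (flowerpot) method, in which small platforms stand in water and the loss of muscle tone in paradoxical sleep wakes the rat, so the water and platforms come with the deprivation and cannot be told apart from it. All rats carried electrodes for recording sleep, and the time of day at death was common to all groups. Each state held 12 rats in 2 sets of 6, and equal masses of RNA from the right side were pooled within a set, which gave 12 pools, 2 for each of 6 groups. Set 1 was pooled 2 times independently and read on 2 arrays per group, which were averaged here, and set 2 was read on 1 array, so that 18 arrays measured 12 pools. With 2 pools a group, the number of pools limits the precision. The p-values measure the spread between pools of 6 rats, which also holds differences between arrays.

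Superoxide, which leaks mainly from mitochondrial respiration, is turned into hydrogen peroxide by the superoxide dismutases. Catalase, the glutathione peroxidases and the thioredoxin system then remove the peroxide. Glutathione is the main small thiol of brain cells, and its synthesis is limited by glutamate-cysteine ligase, a dimer of a catalytic subunit (Gclc) and a modifier subunit (Gclm). The transcription factor NRF2 (Nfe2l2) raises many of these genes when cells are under oxidative stress, through an antioxidant response element whose core letters are TGACNNNGC.

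Promoters are shown because the members include known NRF2 targets, and the core letters were searched on both strands of the 250 bases before to 50 bases after the start of each RefSeq promoter entry, in the rat build GRCr8. There were 12 entries for 9 of the 10 genes, and an entry's start can lie away from the end of the gene's annotated range. The letters were found in 3 entries, of 3 genes, beside 4038 of all 33469 promoters of this length (12.1%). A match describes the letters and is not a binding site. An entry without a match says nothing of letters outside this window, which were not searched, and Hmox1 had no entry. In each of the 3 the letters lie on the opposite strand, so that they read GCNNNGTCA here, and they are given in capitals. The Gclm window is at chr2:213031885-213032184 on the plus strand, with the capitals 172 to 164 bases before the start. The Sod2 window is at chr1:50050119-50050418 on the minus strand, with the capitals 35 to 27 bases before the start. The second Txnrd1 entry, which lies inside the gene's annotated range, is at chr7:22755855-22756154 on the minus strand, with the capitals 78 to 70 bases before the start.
Gclm: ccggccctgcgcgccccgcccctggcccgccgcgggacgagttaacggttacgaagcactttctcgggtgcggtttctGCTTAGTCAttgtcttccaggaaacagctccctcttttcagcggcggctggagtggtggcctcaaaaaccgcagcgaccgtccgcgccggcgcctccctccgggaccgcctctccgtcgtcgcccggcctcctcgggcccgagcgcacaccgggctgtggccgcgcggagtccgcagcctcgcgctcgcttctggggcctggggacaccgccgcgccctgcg
Sod2: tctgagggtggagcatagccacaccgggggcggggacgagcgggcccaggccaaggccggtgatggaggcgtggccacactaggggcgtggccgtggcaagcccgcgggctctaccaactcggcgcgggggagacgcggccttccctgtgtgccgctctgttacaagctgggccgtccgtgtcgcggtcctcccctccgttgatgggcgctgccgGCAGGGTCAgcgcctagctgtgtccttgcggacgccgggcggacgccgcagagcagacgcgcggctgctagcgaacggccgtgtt
Txnrd1: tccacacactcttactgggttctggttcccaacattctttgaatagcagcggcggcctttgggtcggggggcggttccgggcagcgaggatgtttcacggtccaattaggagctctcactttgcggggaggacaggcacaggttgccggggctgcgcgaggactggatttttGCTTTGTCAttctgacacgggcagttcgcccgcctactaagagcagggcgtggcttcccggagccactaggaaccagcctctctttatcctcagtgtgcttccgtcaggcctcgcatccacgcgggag

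The deposited MAS5 signal of the probe sets that passed the filter on dim signals (11 of 13, covering 9 of 10 genes) differed between its highest and lowest pool by 1.16-fold to 1.7-fold. The probe set of Hmox1 and a second one of Gpx4 lay below the filter, set at a mean signal of 19.7. For the 9 tested genes and the 6 comparisons of sleep states within a structure, 0 of 54 differences passed limma's test at an adjusted p under 0.05, all with an adjusted p of 1. The differences ran from -0.28 to 0.25 on the log2 scale, at most 1.21-fold. The test called 0% of the 18625 probe sets in each of these comparisons, so the members' count is that of the background. With the set number as a replicate block the members' count was also 0 of 54. That fit called 0.0107% of all probe sets for deprived minus control and 0.00537% for recovery minus deprived in the neocortex, and 0% in the others. Without adjustment, 0 of 54 had a p under 0.05 by limma. In the neocortex the share of all probe sets at that unadjusted threshold was 1.11% for deprived minus control, 1.12% for recovery minus control and 0.907% for recovery minus deprived. In the hippocampal formation it was 1.1%, 1.51% and 1.62% for the same comparisons in that order. Their 95% intervals reached down to -0.63 and up to 0.67 in log2, and a state difference of up to 1.59-fold therefore lies within an interval for at least 1 gene.

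**Figure D1:**
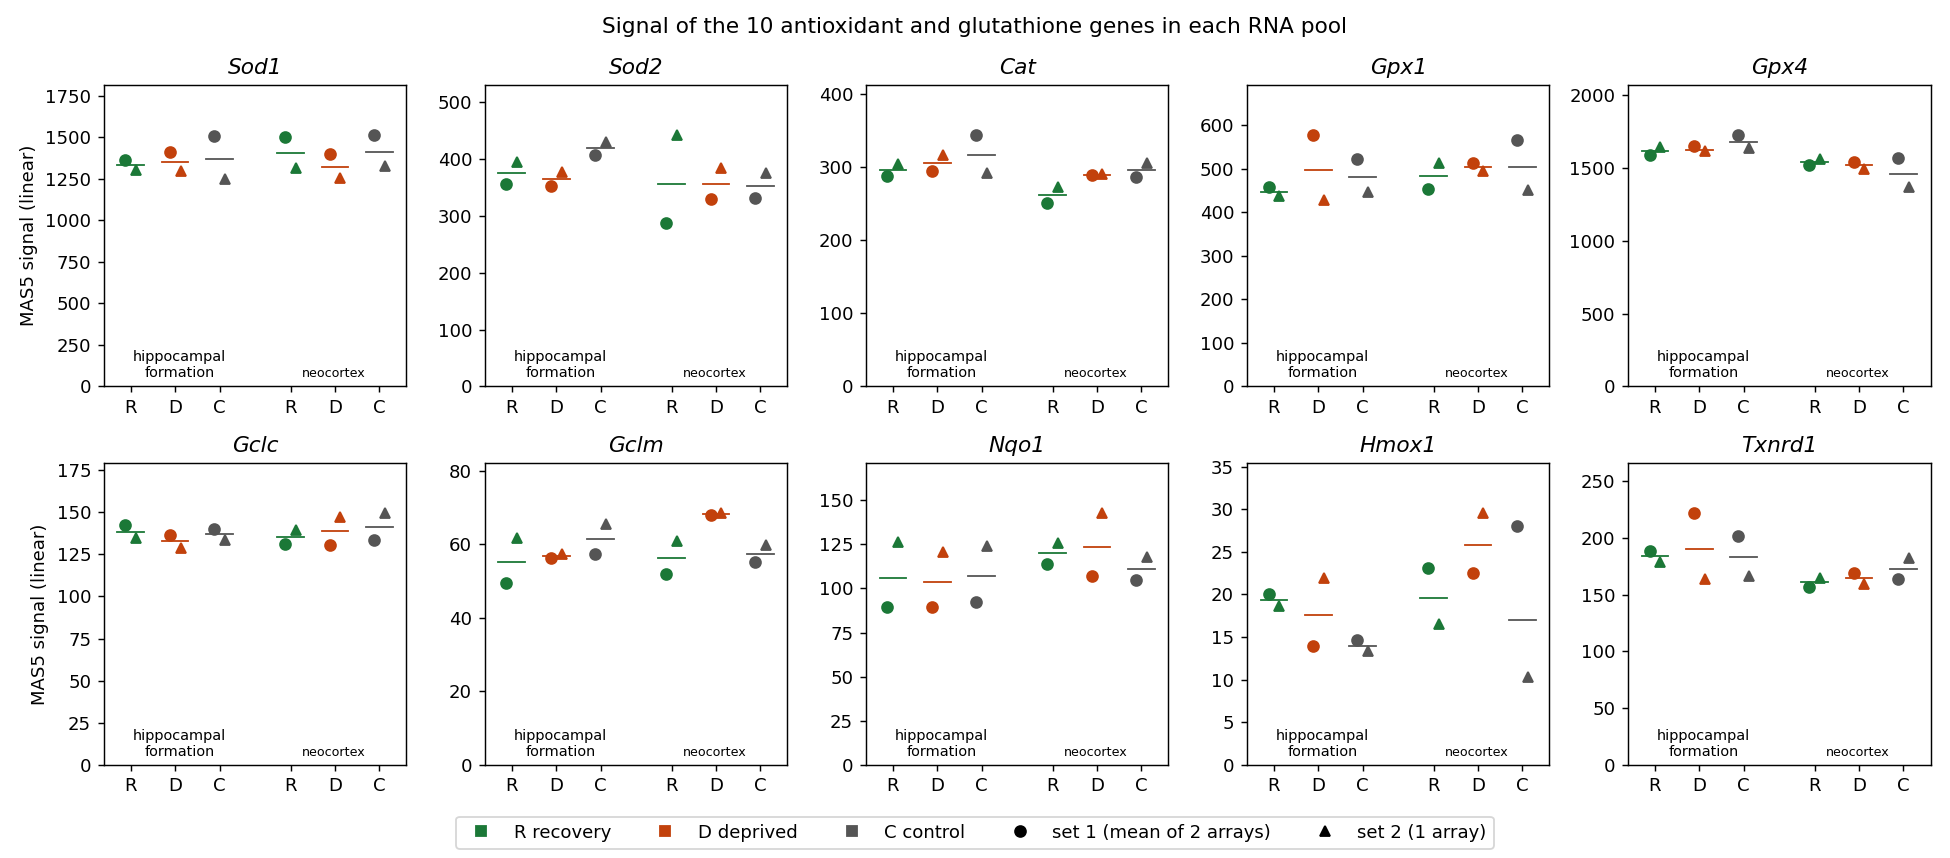
Signal of each member's representative probe set in the 12 pools, one panel a gene, with a linear signal axis that starts at 0; circles are set 1, triangles set 2 and lines the mean of the log2 values of a group. Pools are ordered recovery, deprived, control within the hippocampal formation and then within the neocortex, and Sod1, for example, stays between 1247.5 and 1513.5.

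Sod1 (1367641_at, chromosome 11, 42942742 to 42948399 in GRCr8) encodes the copper-zinc superoxide dismutase of the cytosol. In the hippocampal formation its signal was 1363.4 and 1306.6 in recovery, 1413.1 and 1297.2 in deprived and 1506.7 and 1247.5 in control pools, set 1 before set 2. In the neocortex it was 1501.4 and 1313.9 in recovery, 1402.8 and 1254.9 in deprived and 1513.5 and 1326.5 in control pools. The states overlapped in both structures, and set 1 was higher than set 2 in 6 of 6 groups.

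Sod2 (1370172_at, chromosome 1, 50043323 to 50050168) encodes the manganese enzyme of the mitochondrial matrix. Its hippocampal signal was 355.3 and 394.1 in recovery and 352.7 and 376.1 in deprived pools, against 407.2 and 429.7 in control pools. Both deprived pools lay below both control pools, and so did both recovery pools. Deprived minus control came to -0.20 (SE 0.18, 95% interval -0.60 to 0.20, adjusted p = 1 by limma), with -0.21 in set 1 and -0.19 in set 2. Recovery minus control came to -0.16, with -0.20 in set 1 and -0.12 in set 2. In the neocortex the states overlapped, at 286.4 and 441.2 in recovery, 329.4 and 383.3 in deprived and 330.4 and 374.2 in control pools. The technical arrays of set 1 in the neocortical control group read 409.7 and 266.5, a 1.54-fold gap between single arrays. State differences of Sod2, between group means, were 1.15-fold at most.

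Cat (1367995_at, chromosome 3, 110297340 to 110329526) encodes catalase, which splits hydrogen peroxide and is abundant in peroxisomes and in red blood cells. In the neocortex it read 251.6 and 273.5 in recovery pools, against 290.0 and 290.6 in deprived and 287.1 and 306.1 in control pools. Both recovery pools were the lowest of the structure. Recovery minus control came to -0.18 (SE 0.11, 95% interval -0.42 to 0.07, adjusted p = 1 by limma), with -0.19 in set 1 and -0.16 in set 2, and recovery minus deprived to -0.15. The hippocampal pools overlapped, at 288.6 and 304.8 in recovery, 295.7 and 317.3 in deprived and 344.2 and 292.1 in control pools. Red cell markers (3 of 7 measured) were also low in the recovery neocortex, where their summed signal was 816.2 to 1053.6, against 1591.0 to 1738.1 in deprived and 1677.6 to 2206.3 in control pools, and their part in the Cat result was not tested. In the hippocampal formation that sum was 985.0 to 991.4 in recovery, 1156.2 to 1999.5 in deprived and 1510.3 to 2922.2 in control pools. As a sign of RNA quality, beta-actin had a 3'/5' ratio of 3.18 and 2.83 in recovery neocortical pools, against 3.01 and 2.35 in deprived and 2.69 and 2.61 in control pools. The Gapdh ratio was 1.08 and 1.17 in recovery, 1.05 and 1.15 in deprived and 1.08 and 1.12 in control neocortical pools. In pooled tissue, fewer cells of a type and less RNA per cell cannot be told apart.

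Gpx1 (1367576_at, chromosome 8, 117905462 to 117906588) encodes the main glutathione peroxidase of the cytosol. Its hippocampal signal was 456.7 and 436.6 in recovery, 576.7 and 427.5 in deprived and 521.2 and 445.5 in control pools. Neocortical pools gave 453.5 and 512.4 in recovery, 512.8 and 495.0 in deprived and 565.1 and 450.5 in control pools. All states overlapped, and the widest state difference, recovery minus deprived in the hippocampal formation, was -0.15.

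Gpx4 (1386871_at, chromosome 7, 10300833 to 10303629) encodes the peroxidase that reduces lipid hydroperoxides in membranes and guards against ferroptosis. Its signal was 1587.9 and 1641.8 in recovery, 1645.3 and 1611.2 in deprived and 1722.5 and 1632.8 in control hippocampal pools. Neocortical pools gave 1517.1 and 1556.2 in recovery, 1538.4 and 1492.4 in deprived and 1567.2 and 1364.0 in control pools. No state stood apart, and the largest state difference was 1.05-fold. The second Gpx4 probe set (1391529_at) gave 7.27 to 20.6 and lay below the filter, so it was not tested. Technical arrays of set 1 in a group differed by up to 4.57-fold there.

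Neither subunit of glutamate-cysteine ligase had a state difference that passed the test, and on the representative probe sets the states overlapped for Gclc and stood apart in places for Gclm. Gclc (1372523_at, chromosome 8, 87510251 to 87548896) varied least of the probe sets that passed the filter, from 129.0 to 149.3. It read 142.4 and 134.7 in recovery, 136.6 and 129.0 in deprived and 140.2 and 133.6 in control hippocampal pools. Its neocortical signal was 130.9 and 139.3 in recovery, 130.5 and 147.4 in deprived and 133.5 and 149.3 in control pools. A second Gclc probe set (1370688_at) lay between 77.3 and 98.9. In the neocortex it read 83.8 and 82.4 in recovery pools, just below 87.2 and 86.6 in deprived and 87.1 and 89.5 in control pools, while in the hippocampal formation its states overlapped.

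Gclm (1370030_at, chromosome 2, 213032135 to 213052192) read 52.0 and 60.9 in recovery and 68.1 and 68.4 in deprived neocortical pools, against 55.3 and 59.8 in control pools. The deprived pools were the highest of that structure, and recovery and control pools overlapped. Deprived minus control came to 0.25 (SE 0.16, 95% interval -0.11 to 0.60, adjusted p = 1 by limma), with 0.30 in set 1 and 0.19 in set 2. Recovery minus deprived came to -0.28 (95% interval -0.63 to 0.08), with -0.39 in set 1 and -0.17 in set 2. These comparisons share the deprived pools. In the hippocampal formation the order differed, at 49.4 and 61.7 in recovery and 56.2 and 57.4 in deprived pools, against 57.5 and 65.5 in control pools. There deprived minus control came to -0.11, with -0.03 in set 1 and -0.19 in set 2, and both deprived pools were just below both control pools. The difference between the structures in this change was -0.36 (SE 0.19), with -0.33 in set 1 and -0.38 in set 2, and it did not pass limma's test (adjusted p = 1).

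The remaining genes are textbook NRF2 targets. Nqo1 (1387599_a_at, chromosome 19, 52205374 to 52220267) encodes a quinone reductase. It read 89.4 and 126.1 in recovery, 89.4 and 120.7 in deprived and 92.4 and 124.1 in control hippocampal pools. Its neocortical signal was 114.0 and 126.0 in recovery, 107.1 and 142.5 in deprived and 104.7 and 118.1 in control pools. States overlapped, while set 2 was higher than set 1 in 6 of 6 groups.

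Txnrd1 (1398791_at, chromosome 7, 22717620 to 22802553) encodes the cytosolic thioredoxin reductase. It read 188.7 and 179.1 in recovery, 221.5 and 163.7 in deprived and 201.9 and 166.3 in control hippocampal pools. In the neocortex it read 156.9 and 164.6 in recovery, 169.4 and 159.3 in deprived and 163.9 and 182.2 in control pools. States overlapped in both structures. A second Txnrd1 probe set (1386958_at) read 123.1 and 122.6 in recovery, 148.3 and 119.3 in deprived and 145.1 and 106.2 in control hippocampal pools, and from 87.2 to 125.0 in the neocortex.

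Hmox1 (1370080_at, chromosome 19, 13452365 to 13479823) encodes the inducible heme oxygenase. It read 20.1 and 18.6 in recovery, 14.0 and 21.9 in deprived and 14.7 and 13.3 in control hippocampal pools. In the neocortex it read 23.1 and 16.5 in recovery, 22.5 and 29.5 in deprived and 28.0 and 10.3 in control pools. Both hippocampal recovery pools were above both control pools, by 0.47 in log2, and all other pairs of states overlapped. Technical arrays of set 1 in a group differed by up to 1.63-fold at this dim level. With no filter, Hmox1 had an adjusted p of 1 by limma in each of the 6 state comparisons.

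**Figure D2:**
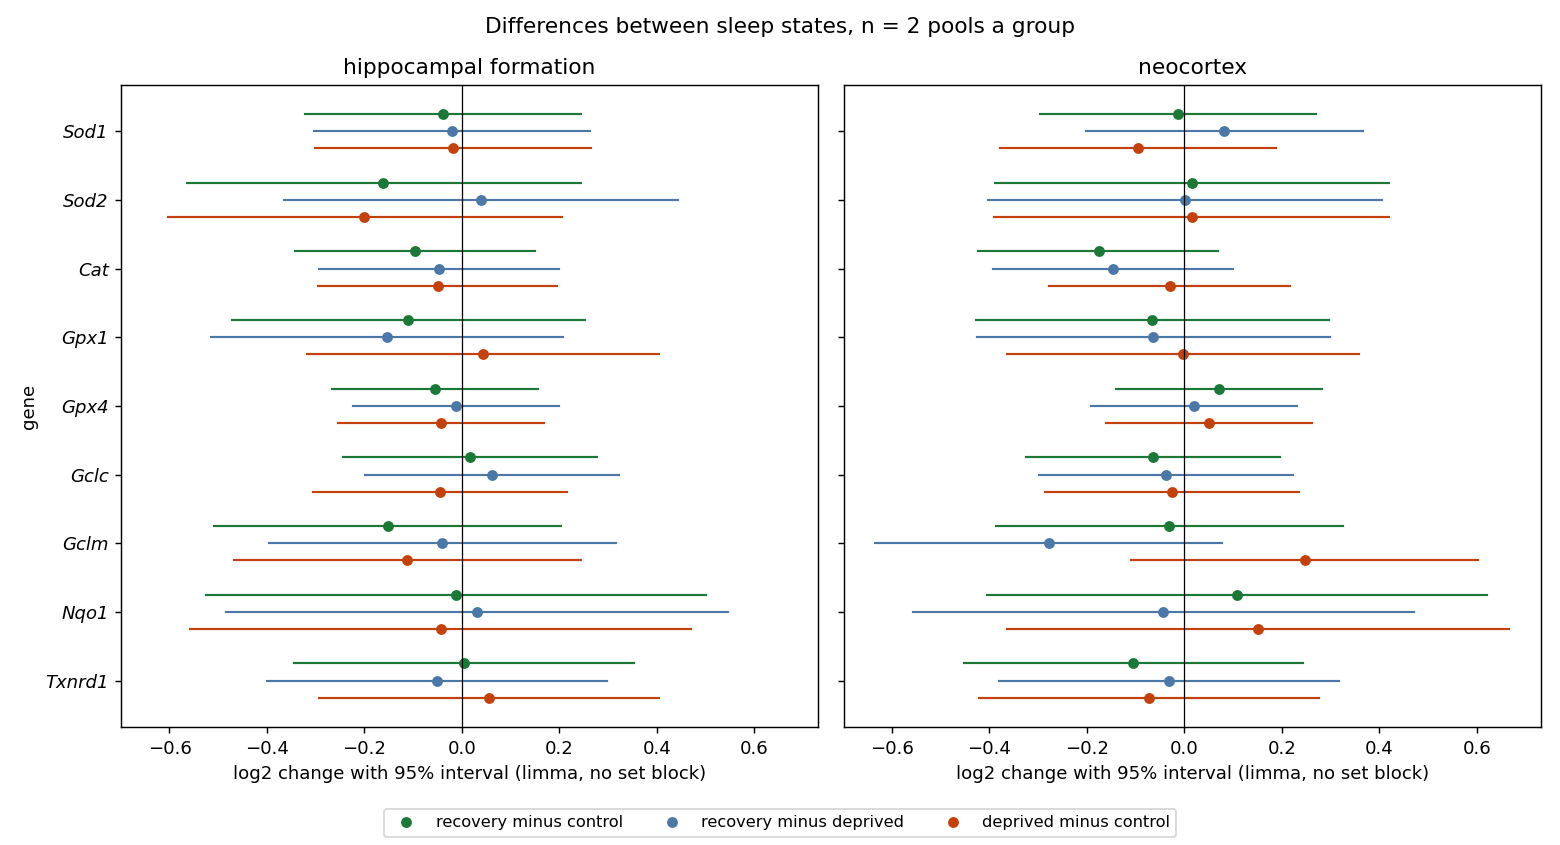
Differences between sleep states in log2 for the 9 tested genes, with 95% limma intervals, in the hippocampal formation and the neocortex. Every interval crosses 0, and the points farthest from it are those of Gclm in the neocortex, at 0.25 for deprived minus control and -0.28 for recovery minus deprived.

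Counted over the 9 tested genes, the groups of 2 pools did not overlap in 7 of 54 differences. In deprived minus control in the neocortex, 1 gene was higher in both pools (Gclm) and 0 were lower, beside 24.5% of all probe sets that did not overlap and 13.1% that were higher. In recovery minus control in the neocortex 1 gene was lower (Cat), beside 24% in either direction and 12.1% lower, and in recovery minus deprived 2 were lower (Cat and Gclm), beside 23.4% and 12.5%. In the hippocampal formation, 2 genes were lower in deprived than in control pools (Sod2 and Gclm), beside 19.3% and 9.33%. There 1 gene was lower in recovery than in control pools (Sod2), beside 19.9% and 9.87%, and 0 differed between recovery and deprived pools, beside 23.2%. Over the 6 comparisons together the members' share was 13%, below the share of all probe sets in each. The median size of the members' differences ranged from 0.04 to 0.07 in log2 over the 6 comparisons, beside 0.09 to 0.10 for all probe sets tested. The tested members' representative probe sets are bright, with mean signals between percentiles 60.8 and 99 of the array. No background matched for signal was drawn, so these shares and sizes do not show that the members are unusually stable.

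Differences between arrays of the same set were often as large as those between states. In 11 of 13 probe sets, the largest gap between the 2 technical arrays of a pool exceeded the largest difference between states. The exceptions were Cat, at 0.10 for technical arrays and 0.18 for states in log2, and Gclm, at 0.13 and 0.28.

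**Figure D3:**
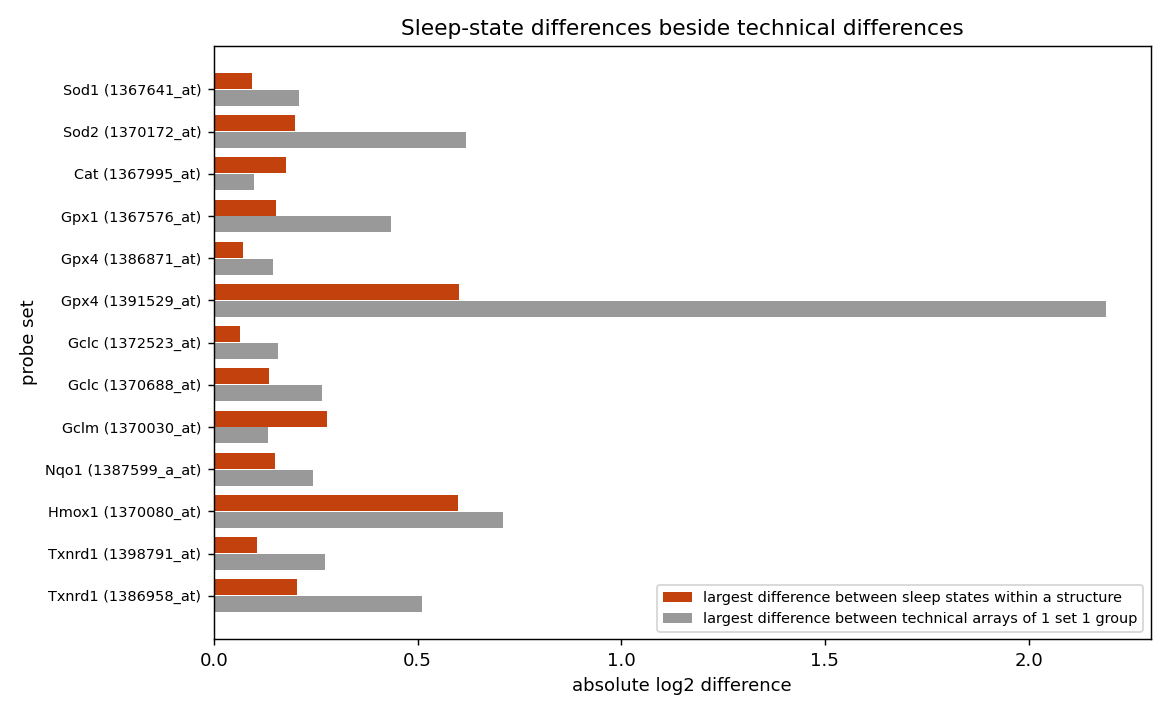
Bars of absolute log2 values that start at 0, for each of the 13 probe sets. They show the largest difference between sleep states (group means) and the largest between technical arrays of set 1 in a group (single arrays). The state bar is the longer one for Cat and Gclm, and the technical bar for the other 11 probe sets.

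The set number, which pools of different rats share across the states, accounted for more of the spread than the sleep state in 6 of 9 tested genes. The set took 75.7% of the variation of Sod1 over the 12 pools, 76.5% of Gclc, 75.8% of Nqo1 and 56% of Sod2, while the state took 10.9%, 15.9%, 5.07% and 13.2% of the same genes. Gclm had the largest share for the state, 50.7%, beside 29.4% for the set, and Cat had 33.6% for the state and 6.16% for the set. A part with more levels takes a larger share by chance, and a structure holds 3 states but 2 sets. The shares were not corrected for this. They were not computed over all probe sets, whose same-numbered pools also deviated together within a structure (r = 0.539 to 0.682). The shares are therefore not shown to be particular to the members. The direction of the set difference was not common to all genes, since set 1 was higher for Sod1 and set 2 for Sod2, Gclm and Nqo1 in 6 of 6 groups. Both structures of a set come from the same rats, so these 6 groups are not independent. The share of all probe sets with such an order was not counted. A set number covers different rats in each state, and set 1 alone was pooled again as a technical control. What the number stands for beyond that was not tested.

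**Figure D4:**
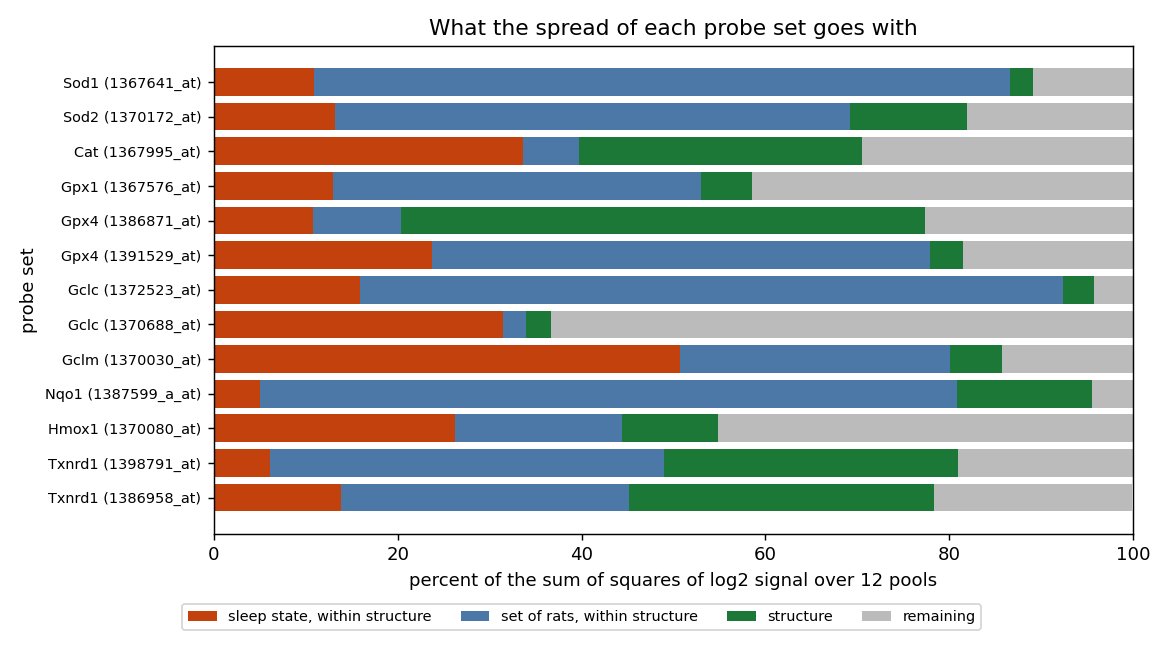
Stacked shares, in percent, of each probe set's variation over the 12 pools. The parts are the structure, the set number within the structure (labelled set of rats), the state within the structure and the rest. On the representative probe sets the set is the widest part for Sod1, Sod2, Gclc, Nqo1 and Txnrd1, the state for Gclm and Cat and the structure for Gpx4. Widths are not corrected for the number of levels of a part.

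Between the structures, the representative probe sets of the 9 tested genes differed by at most 0.16 in log2 in either direction, and 0 of 9 passed the test, while the test called 19.9% of all probe sets. The untested Hmox1 differed by -0.28. The dissection separated the structures: all 7 measured markers of hippocampal neurons were higher in the hippocampal formation (median 2.03 in log2) and 5 of 8 markers of neocortical neurons were lower (Lamp5 by -1.62), while 1 of these 8, Bcl11b, was higher (0.62). The beta-actin 3'/5' ratio was 2.33 to 2.52 in hippocampal and 2.35 to 3.18 in neocortical pools. The Gapdh ratio was 1.09 to 1.17 in hippocampal and 1.05 to 1.17 in neocortical pools. The part of either ratio in the results was not tested. Gpx4 came nearest the threshold. Its signal ran from 1587.9 to 1722.5 in the hippocampal formation, and from 1364.0 to 1567.2 in the neocortex. All hippocampal pools lay above all neocortical pools, and the share of all probe sets that do so was not counted. Within each of the 6 sets of rats the difference was positive, as in 14.3% of all probe sets. The difference was 0.12 (SE 0.04, 95% interval 0.02 to 0.22, adjusted p = 0.0826 by limma). With the set as a replicate block the adjusted p was 0.0155, and with each array centred on its median the difference was 0.21 with an adjusted p of 0.0279, while over all alternatives tried it ranged from 0.0155 to 0.329.

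Nqo1 stood at -0.16 (adjusted p = 0.183 by limma), with -0.26 in set 1 and -0.06 in set 2. Txnrd1 stood at 0.16 (SE 0.08, adjusted p = 0.199 by limma), with 0.32 in set 1 and 0.01 in set 2, and its second probe set at 0.23 (adjusted p = 0.161), with 0.45 and 0.01. With the replicate block Txnrd1 also passed (adjusted p = 0.0245), and over its alternatives the adjusted p ranged from 0.0245 to 0.548. Counted with the block, 2 of 9 members were called (Gpx4 and Txnrd1), while that fit called 43% of all probe sets. Sod2 and Cat stood at 0.12, and neither passed the test. Sod1, Gpx1, Gclc and Gclm lay between -0.07 and -0.02 in log2, and these 4 took the opposite sign when arrays were centred on their medians, which moved the median of all probe sets to 0.07.

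**Figure D5:**
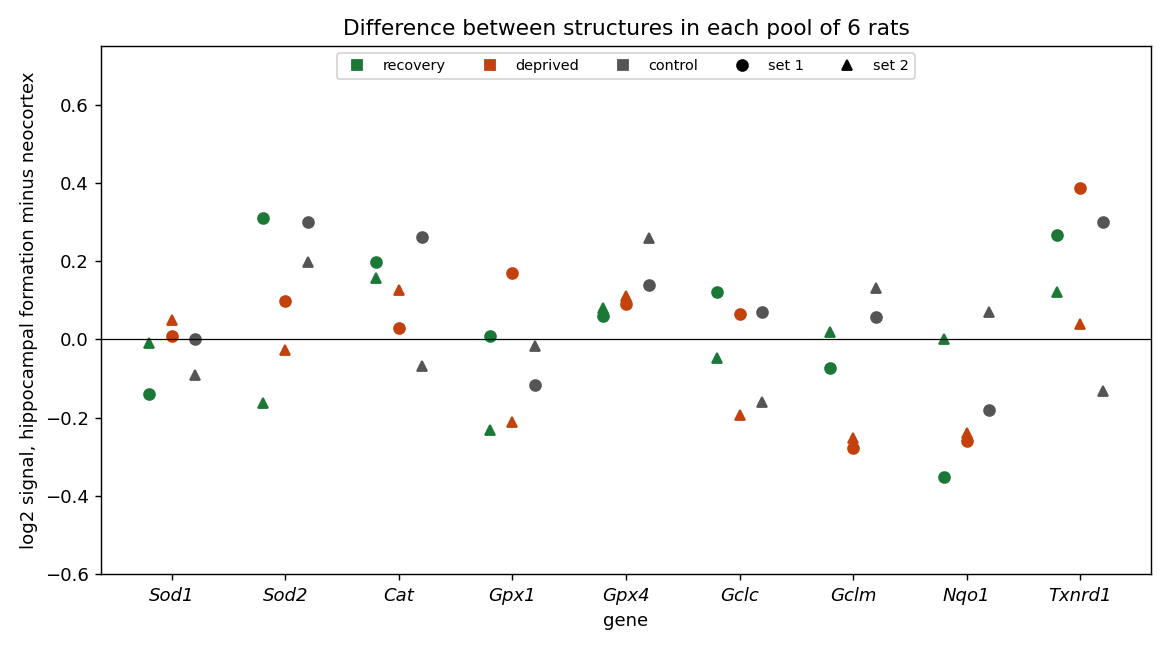
Hippocampal formation minus neocortex in log2 for each member, with 1 point for each of the 6 sets of rats (colour for the state, circles for set 1, triangles for set 2). All 6 points of Gpx4 lie above 0, and the points of each other tested gene fall on both sides of it.

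The wider pathway was examined on 4 lists of genes, again with 0 called in each of the 6 state comparisons (0% of all probe sets). The lists held 28 measured genes of other antioxidant enzymes, 27 of glutathione supply and conjugation, 23 of NRF2 regulators and other targets and 5 that make reactive oxygen. In deprived minus control in the neocortex the list medians lay between 0.00 and 0.03 in log2, beside 0.01 for all probe sets. Srxn1, which encodes sulfiredoxin and repairs overoxidised peroxiredoxins, had the smallest p of its list there. It read 119.8 and 126.1 in deprived neocortical pools, against 99.3 and 77.0 in control pools, a difference of 0.49 (adjusted p = 1 by limma). In recovery neocortical pools Srxn1 read 108.4 and 120.9, 0.39 above control. Its hippocampal signal was 171.6 and 117.5 in recovery, 124.3 and 102.4 in deprived and 121.9 and 101.3 in control pools, 0.35 for recovery minus control with pools that overlapped. Txnip, which encodes an inhibitor of thioredoxin, read 179.9 and 198.4 in deprived hippocampal pools, against 222.7 and 267.1 in control pools, a difference of -0.37 (adjusted p = 1 by limma).

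Other genes with the smallest p in their list had these differences, all with an adjusted p of 1. In deprived minus control in the neocortex, Slc7a11, the cystine carrier that feeds glutathione synthesis, differed by -0.24, Me1, which supplies NADPH, by -0.30 and Aox1 by 0.20. In recovery minus control in the neocortex, Chac1, a glutathione-degrading enzyme, differed by 0.30, Hmox2 by -0.14 and Aox1 by 0.25. In recovery minus deprived in the neocortex, Prdx6 differed by -0.27, Slc3a2 by -0.13, Me1 by 0.13 and Cyba by -0.07. All of these lay within 1.23-fold.

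In deprived minus control in the hippocampal formation, Blvra, a biliverdin reductase, differed by -0.32 and Xdh, xanthine dehydrogenase, by 0.43. In recovery minus control there, Keap1, the inhibitor of NRF2, differed by -0.18 and Xdh by 0.31. In recovery minus deprived there, Ccs, the copper chaperone of Sod1, differed by -0.34, the dim Ggt1 by 0.40, the dim Abcc4 by -0.35 and Maob by 0.07. None of them passed the test. In the first 2 of these comparisons the smallest p of the glutathione list was that of Gstm2, a glutathione transferase. Its hippocampal signals of 6.9 to 18.6 all lay under the filter signal of 19.7, so no difference between states is given for it.

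Between the structures the same lists held called genes, more of them higher than lower in the hippocampal formation, while of all probe sets the test called 9.4% higher and 10.5% lower. Of the other antioxidant enzymes 6 of 28 were higher and 1 was lower. Msra, a methionine sulfoxide reductase, averaged a signal of 93.7 in the hippocampal formation and 55.7 in the neocortex, a difference of 0.75 (adjusted p = 0.000735 by limma). Msrb3, another methionine sulfoxide reductase, averaged 27.9 and 47.2 in the same order, a difference of -0.76 (adjusted p = 0.00756). Sod3, the extracellular superoxide dismutase, was higher by 0.61 (adjusted p = 0.0163), and Prdx6, a peroxiredoxin, by 0.22 (adjusted p = 0.0266).

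Of the glutathione list 10 of 27 were higher and 1 was lower in the hippocampal formation, namely Gstm2, whose hippocampal pools lay under the filter signal. Glo1, which detoxifies methylglyoxal with glutathione, averaged 1066.3 in the hippocampal formation and 804.6 in the neocortex, a difference of 0.41 (adjusted p = 0.00227 by limma). The others with the smallest p were the microsomal transferase Mgst1 at 0.60, the glutamate and cysteine carrier Slc1a1 at 0.66 and the transferase Gstm7 at 0.38. Of the NRF2 list 5 of 23 were higher and 1 was lower, led by the metallothionein Mt2A at 0.45, Taldo1 of the pentose phosphate pathway at 0.48, Me1 at 0.38 and the biliverdin reductase Blvrb at 0.54. Both genes called among the 5 that make reactive oxygen were monoamine oxidases, Maob at 0.31 and Maoa at 0.25. The medians of the 4 lists were 0.09, 0.05, 0.02 and -0.14 in log2, beside -0.01 for all probe sets.

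These list counts changed when 1 set of 1 state was left out of both structures. Over all probe sets, calls in either direction then ranged from 1626 to 4492, against 3700 with all sets. Each such fit holds fewer pools, and the part of the rats left out was not tested. In the 4 lists the genes called higher numbered 1 to 5, 4 to 11, 1 to 5 and 1 to 2. For the other antioxidant enzymes the count was 5 without set 2 and 1 without set 1 of the recovery rats, 3 and 1 for the same sets of the deprived rats and 3 and 2 for those of the control rats. For the glutathione list it was 6 and 5, 6 and 4, and 11 and 5 in the same order. With the replicate block 12, 13, 7 and 2 genes of the 4 lists were called higher and 1, 3, 4 and 1 lower, while that fit called 20.3% of all probe sets higher and 22.7% lower. With arrays centred on their medians 11, 11, 5 and 2 were called higher and 1, 1, 0 and 0 lower. Of all probe sets, that scaling called 2634 higher and 1362 lower, against 1751 and 1949 in the main setting. Astrocyte markers were higher in the hippocampal formation as well, 8 of 9 above 0 and 2 of 9 called (median 0.14 in log2), with a summed signal of 14755.7 to 16121.9 in hippocampal and 12608.5 to 14904.8 in neocortical pools. Other cell types differed as well: oligodendrocyte markers were above 0 in 8 of 8, with 2 called (median 0.17), and microglial markers below 0 in 8 of 8, with 0 called (median -0.13). Of the endothelial markers 4 of 8 were called lower (median -0.29), and of those of meninges and fibroblasts 6 of 8 lower and 2 higher (median -1.22). All 3 measured choroid plexus markers were above 0, with 0 called (median 0.53). The part of these cell types in the list results was not tested.

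Members were finally compared with each other and with all named genes after the mean of each structure and set was taken out, as descriptions over 12 pools that share arrays and scaling. Among pairs of members Sod2 and Gpx4 were most alike (Pearson r = 0.719) and Gpx4 and Gclc least (r = -0.488). For the subunits of glutamate-cysteine ligase, Gclc and Gclm, r was -0.0126 on the representative probe sets. Gclc differed by at most 0.06 in log2 between states there, so this r says little on whether they move together. The second Gclc probe set was not compared. The genes most like each member were picked from 14113 named probe sets, and taking out the means leaves fewer independent values than 12. High r values can arise from such a choice alone, so the names are descriptions only. The named genes most like Gclm were Rxrb (r = 0.943), Gga2 (0.918) and Mrpl34 (0.901). For Cat they were Fxyd7 (0.958), Golm1 (0.948) and Gtf3a (0.946), and for Sod2 Ano3 (0.956), Mtpn (0.926) and Mmd2 (0.925). For Sod1 they were Thumpd2 (0.986), Cables2 (0.953) and Lrrc4b (0.929), and for Gpx1 Aqp4 (0.930), Tprkb (0.923) and Lyz2 (0.917). For Gpx4 they were Mlycd (0.979), Lsamp (0.930) and Parp1 (0.924), and for Gclc Parp9 (0.944), Znf16l-ps1 (0.922) and Dnm1l (0.911). For Nqo1 they were Cacng2 (0.945), Mtarc2 (0.937) and Spg7 (0.914), and for Txnrd1 Srd5a3 (0.957), Srek1 (0.940) and Sec16a (0.940).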

How the data were processed

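RNA pooled from 6 rats per set was read on Affymetrix rat arrays. The authors deposited probe set intensities on a linear scale, made with MAS5 per the submitters' processing notes; its version and scaling target are not given in the sources used here. For the recovery rats the sample labels state 72 h of deprivation before 6 h of sleep, and they were followed here, although the treatment protocol could mean that 78 h came before it.

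From the 31099 intensities per array, values under 1 were raised to 1 and log2 was taken. Array medians lay between 32.1 and 37.1. Control probe sets (57) and the dimmest 40% of the others were left out, which kept 18625, and the arrays of 1 pool were averaged. Names came from the platform annotation for the 20832 probe sets with 1 symbol (436 had several and 9831 none). Gene identifiers matched for 20764 and changed 0 symbols. Where a gene had several probe sets, the one with the highest mean stood for it. Levels were not compared between probe sets.

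Linear models were fitted to all 6 groups with limma 3.58.1 in R 4.3.3, and eBayes was run with trend, with Benjamini-Hochberg adjustment over all kept probe sets and a threshold of 0.05. For comparisons between structures, and for interactions, the model was fitted to hippocampal minus neocortical differences, 1 for each of the 6 sets of rats. The code was tested on simulated data. In the series design a replicate number stands for 1 of the 2 sets of rats of each state, so same-numbered pools of different states hold different rats. Same-numbered pools deviated together within a structure (r = 0.539 to 0.682) and between structures (0.182 to 0.387). The pairs between structures include those from the same rats, at 0.224 to 0.387. The number was therefore also fitted as a block. The labels do not state a shared day or litter. Deprived and recovery comparisons share their control pools.

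Named were all member probe sets, for each list the called genes (up to 4 by p) or the one with the smallest p, and the 3 genes most like each member by Pearson r. The markers Lamp5 and Bcl11b were named after their values were seen. The members, lists and tests were chosen with earlier results of these data known, so nothing here is independent support. Alternatives covered the filter, the floor, scaling, the block, the trend, technical arrays, the mean over probe sets, a random block and each pool left out. The fit without the hippocampal pools of set 2 was chosen after seeing the data. Figures used matplotlib 3.10.9, numpy 2.4.6 and pandas 2.3.3 under Python 3.11.15.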

Additional observations from a re-analysis of the deposited data

Results flagged for a closer look

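Gclm, the modifier subunit of glutamate-cysteine ligase, was flagged because its pools stood apart in opposite directions in the structures when deprived rats were set against controls. Of all probe sets, 13.1% were higher without overlap in the neocortex and 9.33% lower in the hippocampal formation. The share with both was not counted. The hippocampal change was -0.03 in set 1 and -0.19 in set 2. Single arrays overlapped there, at 57.6, 54.8 and 57.4 in deprived and 55.3, 59.8 and 65.5 in control rats. Deprived minus control was -0.11 in log2 in the hippocampal formation, with both deprived pools below both control pools, and 0.25 in the neocortex, with both deprived pools above both control pools. The difference of these changes was -0.36 (adjusted p = 1 by limma, or 0.993 with the replicate block), so it did not pass the test, and over all alternatives it ranged from -0.40 to -0.32.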

How the results depend on the processing

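Over 28 alternatives, 1536 of 1665 member values kept their sign, and the 129 that changed it were not called in either setting. Many of these settings cannot change a given state difference, such as a pool left out of another group, the trend or the block. The count of kept signs is therefore not a measure of stability. The newly called values were 3, all for hippocampal formation minus neocortex: Gpx4 with arrays centred on the median and with the replicate block, and Txnrd1 with the replicate block, which gives 1 and 2 members called in those settings, against 0 otherwise. With 0 members called in the main setting none could be lost, and no newly called value had the opposite sign. With the replicate block, limma called 2 probe sets for deprived minus control and 1 for recovery minus deprived in the neocortex, 2 for the difference between structures in recovery minus deprived, and 8006 between structures, against 3700 without it, and no other call changed. The cause was not tested. With 1 set left out, the count between structures ranged from 1626 to 4492 (1626 without set 1 and 2352 without set 2 of the deprived rats, 1765 without set 1 of the recovery rats, 2144 without set 1 of the controls), and the counts for states, interactions and members ranged from 0 to 0. Centring on the median moved the share of structure calls that were higher in the hippocampal formation to 65.9%, beside 47.3% in the main setting. The mean over all probe sets of a gene gives no count of probe sets. Probe sets near the filter signal of 19.7, Hmox1 and the second of Gpx4, are limited by signal over background, and 2 pools a group limit all state comparisons.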
